A study of Mus musculus with 16 samples.

Results

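The 40 genes of voltage-gated sodium channels, voltage-gated calcium channels, hyperpolarization-activated (HCN) channels and ryanodine receptors described here were measured in the cortex of newborn and week-old control and Foxp1 knockout mice. They were chosen by name: a gene was kept if its symbol began with Scn and a digit, Cacna, Cacnb or Cacng, or named an HCN channel or a ryanodine receptor, and if it reached 1 count per 1000000 reads (CPM) in at least 4 of the 16 libraries. Of the 20841 genes in the deposited table, 46 matched a name and 40 of these passed the minimum. The deposited values are labelled as holding no X or Y genes, so channel genes on those chromosomes are not covered. The 40 comprise 7 sodium channel alpha subunits, 3 sodium channel beta subunits, 5 high-voltage-activated and 3 low-voltage-activated calcium channel alpha1 subunits, 3 alpha2delta subunits, 4 calcium channel beta subunits, 8 gamma subunits including the transmembrane AMPA receptor regulatory proteins (TARPs), 4 HCN channels and 3 ryanodine receptors. The 6 matching genes left out were Cacna1s, Cacna2d4, Scn10a, Scn11a, Scn4a and Scn4b. Just inside the minimum stood Scn7a, at 1 CPM or more in 4 libraries with a mean of 1.01 CPM in P7 controls, and just outside stood Scn4b, Scn11a and Cacna2d4, each at 1 CPM or more in 2 libraries.

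The libraries were made from polyA RNA of the right-hemisphere cortex at postnatal day 0 (P0) or postnatal day 7 (P7), with 4 control and 4 Foxp1 conditional knockout (cKO) libraries at each age. Foxp1 encodes a forkhead transcription factor, and the series title describes its deletion as specific to the forebrain. The sources used here do not give the driver of the Cre recombinase, the deleted exons, the mouse strain or the alleles that the controls carry. The labels do not say whether each library is a separate animal, so every p-value measures the spread between these libraries. The P0 libraries were built and read as 50 bp single ends on a BGISEQ-500 at BGI, and the P7 libraries as 75 bp single ends on a NextSeq 500 at UT Southwestern, so age cannot be told apart from platform, centre and read length.

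Sodium channel alpha subunits form the pore that carries the upstroke of the action potential, and their beta subunits tune its gating and help hold it in the membrane. Calcium channel alpha1 subunits form the pore through which calcium enters on depolarization, alpha2delta and beta subunits bring it to the membrane and shape its current, and ryanodine receptors release calcium from the endoplasmic reticulum. HCN channels open on hyperpolarization and carry an inward current that sets resting potential and dendritic integration, and TARPs, which share the name of the calcium channel gamma subunits, traffic and modulate AMPA-type glutamate receptors.

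Recovered read totals ran from 17957490 to 18232943 at P0 and from 9858296 to 15335738 at P7, and a count of 3 reads corresponded to at most 0.167 CPM at P0 and 0.304 CPM at P7. Foxp1 was lower in cKO than in control cortex at both ages, with log2 differences of -1.02 (SE 0.11, limma adjusted p = 0.00226) at P0 and -1.03 (SE 0.12, limma adjusted p = 0.000164) at P7 on the log2(CPM + 1) scale, from 326 ± 38.3 to 161 ± 21.3 CPM and from 444 ± 73.3 to 217 ± 38.4 CPM (mean ± SD, n = 4 libraries, as for all such values). At P0, control libraries 2 and 6 lay apart from the other 6 on the first principal component, which carried 46.5% of the variance. Their scores were -38.1 and -19.5, against 0.443 and 6.27 in the other controls and 7.90 to 17.9 in the cKO. All P0 controls thus lay below all P0 cKO libraries on this component. The excitatory cortical neuron markers Slc17a7, Neurod2, Neurod6, Tbr1 and Emx1 were present in every group, with a summed level of 2145 to 2726 CPM in P0 controls and 723 to 868 CPM in P7 controls. Skeletal muscle markers, checked because Ryr1 and Cacng1 are abundant in muscle, summed to 5.53 to 8.22 CPM over the P7 libraries and 1.81 to 3.32 CPM over the P0 libraries. Acta1 is listed at 0 in every P0 library, but so are some genes that nearly all cells use.

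At P7, 7 of the 40 channel genes differed between cKO and control cortex, 6 of them lower and 1 higher in the cKO. The lower genes included Ryr2, Cacnb4, Cacna1a, Scn8a and Cacna1g, and the higher gene was Cacng4. Their levels in the cKO ranged from 75.2% of control for Ryr2 to 87.1% for Scn8a among the genes that fell, and reached 124% for Cacng4. The test was limma on log2(CPM + 1) over the 12828 genes tested, with Benjamini-Hochberg adjustment at 0.05. The 7 make up 17.5% of the channel genes, against 3.72% of all genes tested. By direction, 1 of 40 was higher against 1.67% of all genes, and 6 of 40 were lower against 2.05%. The median log2 difference over the 40 was -0.03, beside 0.03 over all genes tested. An unadjusted limma p under 0.05 was found for 14 of 40 (35%), beside 14.3% of all genes. Without control library 46 the count was 4 (Ryr2, Cacnb4 and Cacng4 among them), and in 1 model over all 16 libraries it was 1 (Ryr2); with each other P7 library left out in turn it was 5 to 8. In bulk cortex, fewer cells of a type and less RNA per cell cannot be told apart.

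**Figure D1:**
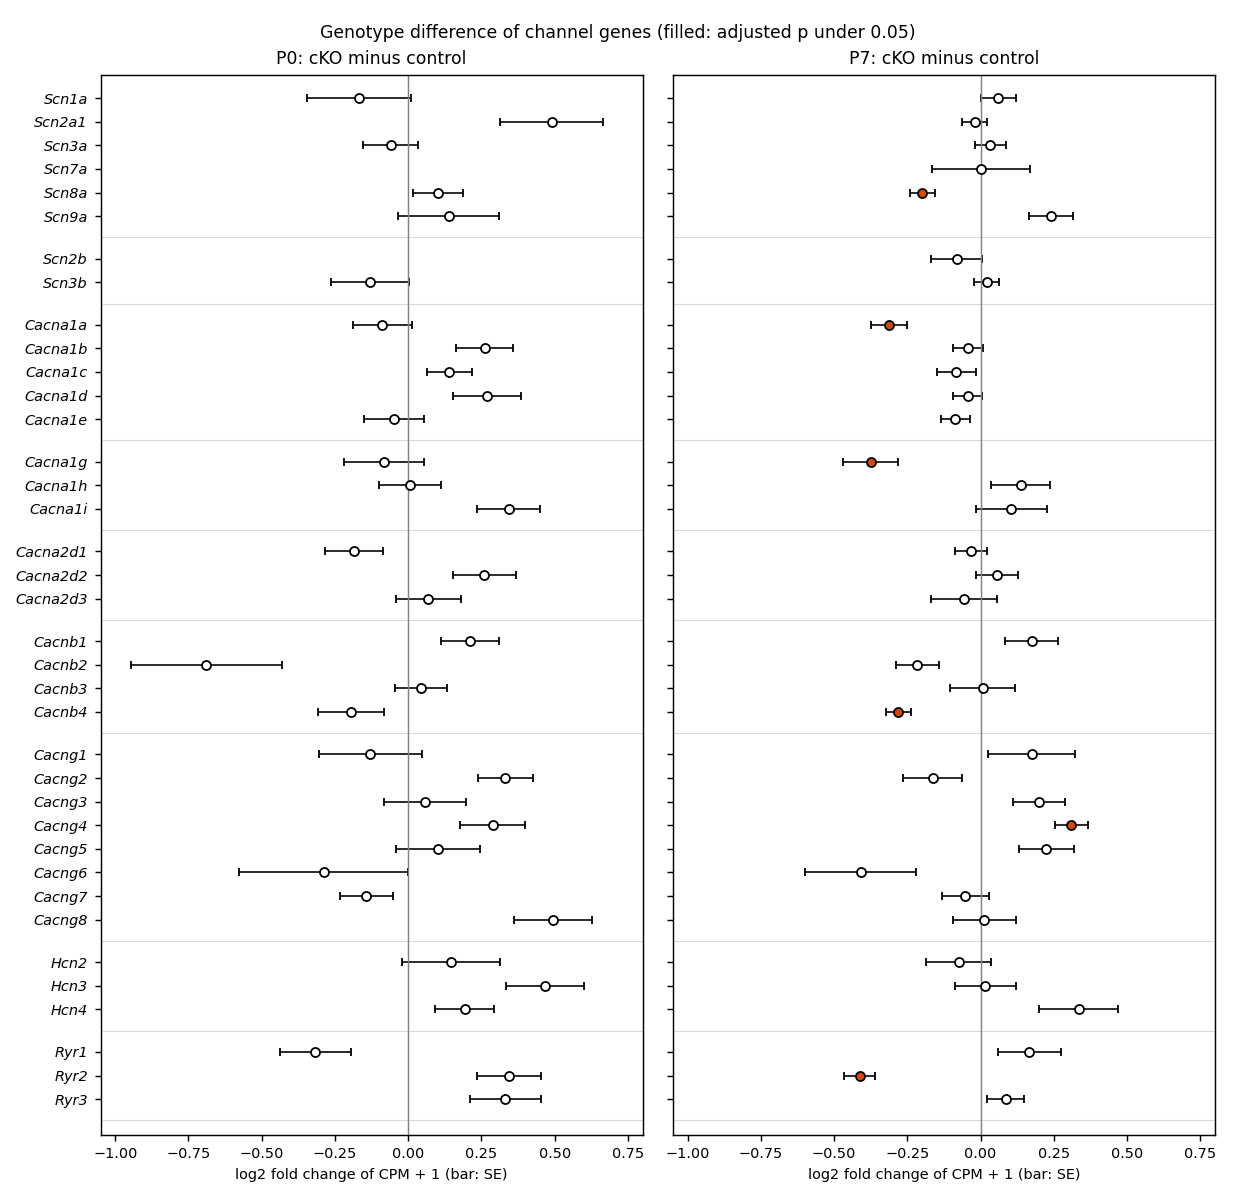
Log2 difference between cKO and control cortex (cKO minus control, log2(CPM + 1), x axis) for 37 of the channel genes by family, at P0 on the left and P7 on the right; points are limma estimates, bars their SE, and filled points passed the test. The 6 filled points are all at P7, and Ryr2 lies above 0 at P0 and below 0 at P7.

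Among ryanodine receptors, Ryr2, the main neuronal and cardiac calcium release channel, changed and its relatives were not called. In P7 controls Ryr2 stood at 389.7, 397, 405 and 387 CPM, and in the cKO at 294, 326, 298 and 269.6 CPM. The highest cKO library lay below the lowest control library. The log2 difference was -0.41 (SE 0.05, limma adjusted p = 0.000349). Ryr1, the skeletal muscle form, had a log2 difference of 0.17 (adjusted p = 0.547, limma) and Ryr3, a form found in brain and smooth muscle, of 0.09 (adjusted p = 0.617, limma). Ryr2 lies on chromosome 13, 11553102 to 12106945, minus strand (GRCm38).

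Among calcium channel alpha1 subunits, Cacna1a, which forms the P/Q-type channel of presynaptic terminals, fell from 215, 238, 249.7 and 247 CPM in the controls to 187, 210.0, 193 and 174 CPM in the cKO, a log2 difference of -0.31 (SE 0.06, limma adjusted p = 0.00960). The groups did not overlap, though the highest cKO library was close to the lowest control library. The other 4 high-voltage-activated subunits were not called: Cacna1b (N-type) had a log2 difference of -0.04, Cacna1c and Cacna1d (both L-type) of -0.08 and -0.04, and Cacna1e (R-type) of -0.09. Of the low-voltage-activated T-type subunits, Cacna1g stood at 69.7, 79.8, 72.3 and 84.7 CPM in the controls and 64.2, 68.7, 53.7 and 50.1 CPM in the cKO. Its log2 difference was -0.37 (SE 0.09, limma adjusted p = 0.0376), with the highest cKO library only just under the lowest control library. It lost the call when control library 45, 46 or 47, or cKO library 44 or 48, was left out, with log2 differences from -0.40 to -0.30. Cacna1h and Cacna1i, the other T-type subunits, had log2 differences of 0.14 and 0.10 and were not called.

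Among the auxiliary subunits, Cacnb4, the beta subunit whose loss gives the lethargic mouse, stood at 379, 371, 385 and 385 CPM in P7 controls and 295, 324, 316 and 317 CPM in the cKO. All 4 cKO libraries lay below all 4 controls, with a log2 difference of -0.28 (SE 0.04, limma adjusted p = 0.00160). Cacnb1, Cacnb2 and Cacnb3 had log2 differences of 0.17, -0.22 and 0.01 and were not called. Nor were the 3 alpha2delta subunits, whose log2 differences lay between -0.06 and 0.06. Cacng4, a TARP, was the 1 channel gene that rose: it stood at 218, 197, 198 and 219.6 CPM in the controls and 274, 260.5, 236 and 263 CPM in the cKO. Its groups did not overlap, and its log2 difference was 0.31 (SE 0.06, limma adjusted p = 0.00502). Cacng5, a less abundant TARP beside Cacng4 on chromosome 11, also had no cKO library within the control range, at 10.1, 11.5, 10.9 and 10.5 CPM in the controls and 13.2, 12.6, 12.5 and 12.5 CPM in the cKO, but its log2 difference of 0.22 did not pass (adjusted p = 0.274, limma). Cacng4 and Cacng5 were the 2 of 40 channel genes whose cKO values all lay above the controls, against 5.11% of all genes tested. The 6 genes that fell were those whose values all lay below, against 3.77%.

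Of the HCN channels, Hcn4, the form best known from pacemaker cells of the heart, had a log2 difference of 0.33 that did not pass (adjusted p = 0.254, limma), while Hcn2 and Hcn3 had differences of -0.08 and 0.02. Of the sodium channel alpha subunits, Scn8a, which is concentrated at axon initial segments and nodes of Ranvier, fell from 348, 364, 354 and 349.8 CPM to 301, 314, 314 and 303 CPM. Its difference was the smallest of the 7, -0.20 (SE 0.04, limma adjusted p = 0.0125). The call was lost without control library 45 or 46 and in 1 model over all 16 libraries. The other sodium channel genes were not called. Among them, Scn1a, Scn2a1 and Scn3a, the other main pore subunits of brain, had log2 differences of 0.06, -0.02 and 0.03. Scn9a, a pore subunit best known from sensory neurons, had a log2 difference of 0.24 (adjusted p = 0.111, limma).

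**Figure D2:**
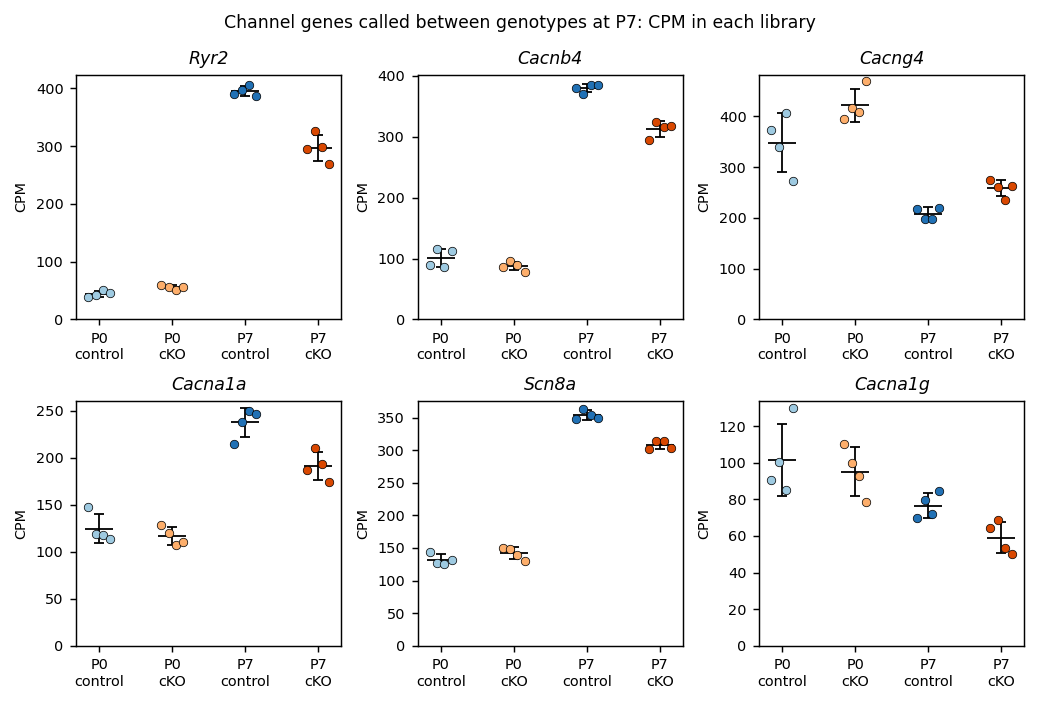
CPM in each library (y axis, from 0) of the 4 groups for 6 of the channel genes called at P7; points are libraries, the horizontal mark is the mean of 4 and the bar its SD. In all 6 panels the P7 control and P7 cKO points do not overlap, and Cacng4 is the gene with the higher cKO points.

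Positions of the other genes named as called at P7 are given on GRCm38. Cacnb4 is on chromosome 2, 52428320 to 52676831, minus strand, Cacna1a on chromosome 8, 84388440 to 84640246, plus strand, and Scn8a on chromosome 15, 100869858 to 101045938, plus strand. Cacna1g and Cacng4 are both on chromosome 11, at 94408391 to 94474198 and 107732357 to 107794557, each on the minus strand.

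Beside these differences, the 6 astrocyte markers summed to 3501 to 3791 CPM in P7 controls and 3093 to 3541 CPM in the cKO, the 5 thalamus markers to 165 to 179 CPM and 178 to 231 CPM, with Gbx2 at 0 in the P7 controls, and the 8 striatum markers to 196 to 445 CPM and 226 to 376 CPM. The control and cKO ranges overlapped in all 3 lists, and their part in the channel gene differences was not tested. The 5 excitatory cortical neuron markers summed to 723 to 868 CPM in P7 controls and 675 to 831 CPM in the cKO.

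Promoter sequence from RefSeq (GRCm38.p6) was at hand for 28 of the 40 genes in 39 windows, each from 250 bases before to 50 after a transcript start. Among the 7 genes called at P7 these include Ryr2, Scn8a and Cacnb4, but Cacng4, Cacna1a and Cacna1g are named only. The upstream 250 bases of 1 start of each of the 3 are shown, because these are the genes with the genotype difference at P7 whose proximal DNA can be compared; they are on the gene's strand and overlap no annotated exon. The starts shown for Cacnb4 and Scn8a lie inside the annotated gene, and capitals mark CG dinucleotides.
Ryr2: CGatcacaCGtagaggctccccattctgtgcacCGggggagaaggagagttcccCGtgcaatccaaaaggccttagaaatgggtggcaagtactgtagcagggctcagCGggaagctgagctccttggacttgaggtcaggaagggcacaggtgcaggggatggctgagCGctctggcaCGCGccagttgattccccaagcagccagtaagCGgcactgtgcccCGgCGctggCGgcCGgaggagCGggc
Scn8a: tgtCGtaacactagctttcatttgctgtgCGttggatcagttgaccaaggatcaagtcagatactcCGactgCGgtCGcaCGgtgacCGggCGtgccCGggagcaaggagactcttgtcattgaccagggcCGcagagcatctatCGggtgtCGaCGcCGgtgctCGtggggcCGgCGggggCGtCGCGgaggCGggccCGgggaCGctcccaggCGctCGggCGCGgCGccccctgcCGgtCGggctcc
Cacnb4: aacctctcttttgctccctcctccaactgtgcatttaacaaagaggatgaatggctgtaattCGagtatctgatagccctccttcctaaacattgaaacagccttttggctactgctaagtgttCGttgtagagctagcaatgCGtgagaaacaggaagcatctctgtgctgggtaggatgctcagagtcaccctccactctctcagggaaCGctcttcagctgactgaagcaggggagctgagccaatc
The Ryr2 stretch (chr13:12106946-12107195, minus strand) holds 14 CG dinucleotides at 63.2% G+C. The Scn8a stretch (chr15:100870395-100870644, plus strand) holds 30 at 68% G+C, and the Cacnb4 stretch (chr2:52558612-52558861, minus strand) holds 4 at 48.8% G+C. These values differ between starts of 1 gene: the stretches before the other Cacnb4 starts, which overlap exons, hold 23 at 71.2% and 37 at 79.6% G+C, and that before the other Scn8a start holds 9 at 53.2%. The forkhead core TGTTTAC, searched on both strands, was in 0 of the 39 channel gene windows, beside 3.65% of all 32851 windows in the same table. The left part of the RE1 element, TTCAGCACC, was also in 0 of 39 windows, beside 0.371% of all. The TATA box TATAAA was in 2 windows, 1 each of Cacna1d and Scn2a (listed as Scn2a1 in the deposited table), or 5.13%, beside 13.6% of all. None of the 3 motifs is contained in another, and each count is of letters in these windows alone. For the first 2 motifs, 39 windows are too few to tell 0 from shares this low. The channel gene windows had a median of 59.7% G+C, beside 52.7% over all windows, and its part in the counts was not tested.

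At P0 none of the 38 channel genes tested was called (0 of 38, against 0.254% of all 12580 genes tested, limma with Benjamini-Hochberg adjustment), and edgeR on recovered reads also called 0. By direction, 0 were higher against 0.183% of all genes, and 0 were lower against 0.0715%. Without adjustment, 13 of 38 (34.2%) had p under 0.05, against 18.1% of all genes tested. The log2 differences ran from -0.69 for Cacnb2 to 0.49 for Cacng8, with a median of 0.09 beside 0.01 over all genes tested; 24 were above 0 and 14 below. Cacnb2, a calcium channel beta subunit, stood at 12.4, 28.8, 13.4 and 27.1 CPM in the P0 controls (libraries 1, 2, 5 and 6 in turn) and at 10.9, 12.5, 14.6 and 8.57 CPM in the P0 cKO. Control libraries 2 and 6, which lay apart from the rest, were high, and the other controls lay within the cKO range. Scn2b and Scn7a did not reach the minimum at P0. In 1 model over all 16 libraries 4 channel genes were called at P0 (Cacng8, Hcn3, Ryr2 and Scn2a1). That model called 794 of all 13444 genes tested at P0, beside 32 of 12580 in the main test.

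The 4 genes with the smallest unadjusted p at P0 were Cacng8, Cacng2, Hcn3 and Cacna1i, all with higher values in the cKO. Cacng8, a TARP of forebrain AMPA receptors, stood at 28.03, 22.8, 29.1 and 31.2 CPM in P0 controls and 47.7, 36.3, 38.9 and 35.4 CPM in the cKO, a log2 difference of 0.49 (SE 0.13, limma adjusted p = 0.122). Cacng2 (stargazin), the best studied TARP, stood at 59.3, 55.2, 66.5 and 55.1 CPM in the controls and 76.9, 74.9, 70.5 and 75.02 CPM in the cKO, with a log2 difference of 0.33 (SE 0.09, limma adjusted p = 0.133). The cKO values of both lay above all control values. Hcn3, an HCN channel, stood at 29.2, 24.5, 31.7 and 30.6 CPM and 47.1, 42.2, 41.3 and 32.1 CPM, a log2 difference of 0.47 (SE 0.13, limma adjusted p = 0.138). Cacna1i, a T-type subunit, stood at 33.1, 32.9, 36.1 and 36.7 CPM and 51.2, 40.5, 42.9 and 42.9 CPM, a log2 difference of 0.34 (SE 0.11, limma adjusted p = 0.164). Both again had no overlap between groups. With Ryr2 and Cacna1c these were the 6 of 38 channel genes whose cKO values all lay above the controls, against 5.37% of all genes tested. The groups only just separated for Cacna1c, with a highest control of 207.043 CPM and a lowest cKO of 207.049 CPM. The same pair of values was 51.1 and 51.6 CPM for Ryr2 and 31.7 and 32.1 CPM for Hcn3. Wholly below the controls lay 0 of 38, against 4.5%.

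With control libraries 2 and 6 left out, the log2 differences were 0.45 for Cacng8, 0.24 for Cacng2, 0.39 for Hcn3 and 0.35 for Cacna1i, and none of the 4 was called. Scn2a1, a sodium channel pore subunit, was lowest in those same libraries: the P0 controls held 214, 105, 187 and 132 CPM in libraries 1, 2, 5 and 6, and the cKO 221, 232, 195 and 218 CPM, a log2 difference of 0.49 (adjusted p = 0.202, limma). The 6 progenitor markers summed to 381 to 530 CPM in P0 controls and 309 to 342 CPM in the cKO, without overlap, the astrocyte markers to 368 to 465 CPM and 462 to 512 CPM, and the 5 thalamus markers to 133 to 231 CPM and 118 to 139 CPM. The blood markers, 20.2 to 28.7 CPM in controls and 15.6 to 18.98 CPM in the cKO, and the skeletal muscle markers, 1.81 to 2.60 CPM and 2.88 to 3.32 CPM, also did not overlap, while the astrocyte and thalamus ranges did; their part in the P0 values was not tested.

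The genotype difference itself differed between P7 and P0 for 1 channel gene, Ryr2 (1 of 40, against 0.751% of all 13444 genes tested). At P0 Ryr2 stood at 38.2, 41.97, 51.1 and 44.995 CPM in controls and 60.3, 55.4, 51.6 and 56.7 CPM in the cKO. Its cKO values were all above the controls at P0 and all below them at P7. The difference was 0.34 at P0 (adjusted p = 0.168, limma, not called) and -0.41 at P7 on the log2 scale. The difference between them, from 1 limma model over all 16 libraries, was -0.76 (SE 0.12, limma adjusted p = 0.00443). Without P0 control libraries 2 and 6 it was -0.75 (limma adjusted p = 0.00469). Leaving out P0 control library 1 raised the count to 3 genes, adding Scn2a1 and Scn8a, and leaving out control library 5 also gave 3, with Cacng2 added. The count over all genes, 101 with every library, also moved widely when 1 library was left out, as given at the end. For 5 other genes called at P7 the interaction is given, and it did not pass. Its log2 value was -0.22 for Cacna1a, -0.29 for Cacna1g, -0.09 for Cacnb4, 0.02 for Cacng4 and -0.30 for Scn8a, with adjusted p between 0.122 and 0.962 (limma).

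In control cortex 35 of the 40 genes differed between the ages, 23 higher and 12 lower at P7 (87.5%, against 82.5% of all 13444 genes tested; 35.1% of all genes were higher and 47.3% lower). In the cKO, 34 differed, 20 higher and 14 lower (85%, against 81.7% of all genes tested). Most genes thus differed between P0 and P7 libraries, and age, platform, centre and read length cannot be told apart. Scaling by medians of ratios in place of CPM raised the median log2 difference over all genes by 0.20 in controls. The same call stood under all 4 scalings tried for 34 of the 40 genes (22 higher, 9 lower), and the 6 that differed included Cacna1g, Cacng5, Cacng8, Scn3b and Scn7a. In the cKO it stood for 33 (20 higher, 10 lower). The share of all genes with the same call under all 4 scalings was not computed.

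**Figure D3:**
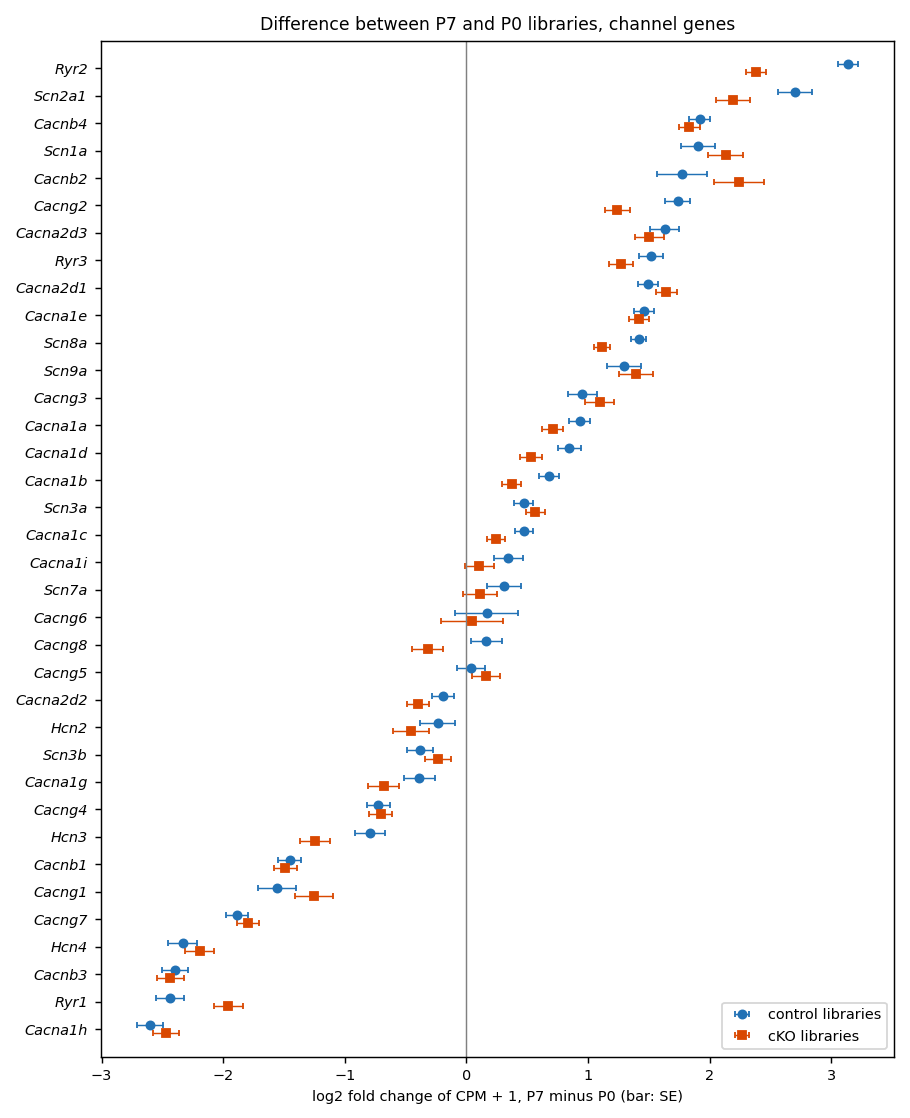
Log2 difference between P7 and P0 cortex (log2(CPM + 1), x axis) for 36 of the channel genes, sorted by value in controls, in control libraries (circles) and cKO libraries (squares), with bars for the SE; Scn2b, listed at 0 at P0, is not among them. Ryr2, at 3.14 in controls, lies farthest to the right, and Cacna1h, at -2.60, farthest to the left.

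Among the sodium channel pore subunits, Scn2a1 (Scn2a) had the largest difference. It stood at 214, 105, 187 and 132 CPM in P0 controls and 979, 1017, 1012 and 1009 CPM in P7 controls, a 6.30-fold higher mean and a log2 difference of 2.70 (SE 0.14, limma adjusted p = 2.6e-13). That SE rests on the spread of all 4 groups, and the P0 controls alone varied more, with an SD of 49.7 CPM beside 15.6 CPM in the P0 cKO. In the cKO the means were 216 and 991 CPM. Scn1a, Scn8a and Scn9a were also higher at P7 in controls, with log2 differences of 1.91, 1.42 and 1.29. For Scn3a, the pore subunit known for its high expression before birth, it was 0.47. Levels between genes are compared per kilobase of exon, with every annotated exon base of a gene counted once. As a share of the 7 pore subunits, Scn3a went from 34.5 ± 3.07% in P0 controls to 14.2 ± 0.484% in P7 controls, and Scn2a1 from 27.5 ± 6.72% to 52.5 ± 0.987%. The call of Scn7a, a sodium-sensing channel (higher at P7), was lost under quantile normalization, and its P7 control mean was 1.01 CPM. Scn1a, Scn2a1, Scn3a, Scn7a and Scn9a share a cluster on chromosome 2. Between 4.03% and 6.49% of the 50-base stretches of Scn1a, Scn2a1, Scn3a and Scn9a also occur in another gene, most often a neighbour in that cluster, so a small part of their reads could have been split or dropped.

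Of the beta subunits, Scn3b was the most abundant at P0, at 63.9 ± 16.3 CPM per kb in controls. Scn3b had a log2 difference of -0.38, called lower, but not under medians of ratios or edgeR. Scn2b is listed at 0 in all 8 P0 libraries and stood at 26.3, 26.98, 27.9 and 25.04 CPM in P7 controls and 29.4, 23.9, 24.6 and 22.7 CPM in the cKO. It is 1 of 113 genes (1.28% of the 8796 whose P7 mean reached 10 CPM) that are listed at 0 in every P0 library, among them B2m, Rpl35 and Srsf2, which nearly all cells use. In the reverse direction 2 genes are at 0 (0.0215% of 9305), and no fold is given for Scn2b.

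All 5 high-voltage-activated calcium channel pore subunits kept here were higher at P7 in controls under all 4 scalings. Under CPM scaling their log2 differences ran from 0.47 for Cacna1c to 1.46 for Cacna1e. The T-type subunits did not move together. Cacna1h stood at 206, 169, 174 and 184 CPM in P0 controls and 29.1, 33.5, 28.1 and 26.7 CPM in P7 controls, a 6.24-fold lower mean and the largest fall of any channel gene called, -2.60 (SE 0.11, limma adjusted p = 8.9e-15) on the log2 scale. The cKO means were 185 and 32.5 CPM. Cacna1i was higher at P7 by 0.35 in controls. Cacna1g was called lower in controls, at -0.39, under CPM scaling alone, and in the cKO, at -0.68, under all 4 scalings. Per kilobase, Cacna1h made up 58.2 ± 4.23% of the T-type signal in P0 controls and 19.95 ± 1.45% in P7 controls, while Cacna1g went from 30.9 ± 4.30% to 50.1 ± 3.33%, and to 41.5 ± 2.13% in the P7 cKO.

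The calcium channel beta subunits exchanged places in bulk cortex. Cacnb3 stood at 221, 185, 219 and 228 CPM in P0 controls and 36.7, 45.6, 38.1 and 38.2 CPM in P7 controls, a log2 difference of -2.40 (SE 0.11, limma adjusted p = 3.0e-14). Cacnb4 stood at 89.8, 115, 85.4 and 112 CPM in P0 controls, beside 371 to 385 CPM in P7 controls, a log2 difference of 1.92 (SE 0.09, limma adjusted p = 2.9e-14). Cacnb1 was lower at P7, at -1.45 and Cacnb2 higher, at 1.77 on the log2 scale. As a share of the 4 beta subunits per kilobase, Cacnb3 went from 64.3 ± 2.88% to 15.6 ± 1.32% in controls and Cacnb4 went from 13.6 ± 2.43% to 66.9 ± 2.26%. In the P7 cKO Cacnb4 held 62.3 ± 2.76%. Of the alpha2delta subunits, Cacna2d1 and Cacna2d3 were higher at P7, at 1.49 and 1.63, and Cacna2d2, at -0.19, was not called (adjusted p = 0.0581, limma). Reads of Cacnb4 overlap an antisense gene over 15.99% of its exon length. Strand use in counting is not stated, so that part of its signal cannot be assigned.

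Among the gamma subunits and TARPs, Cacng4 and Cacng7 were the most abundant at P0, at 97.4 ± 16.1 and 76.8 ± 8.36 CPM per kb in controls, and both were lower at P7. Cacng7 stood at 182, 189.7, 164 and 213 CPM in P0 controls and 49.97, 51.8, 50.5 and 46.2 CPM in P7 controls, a log2 difference of -1.89 (SE 0.09, limma adjusted p = 6.2e-14), and Cacng4 had a log2 difference of -0.72. Cacng2 and Cacng3 were higher at P7, at 1.74 and 0.95, and Cacng1, the muscle calcium channel gamma subunit, was lower, at -1.56, with a P7 control mean of 2.24 CPM. Cacng5, Cacng6 and Cacng8 were not called under CPM scaling; Cacng8 was called higher under the other 3 scalings and Cacng5 under 2. As a share of the 8 genes per kilobase, Cacng7 went from 35.9 ± 4.89% to 13.8 ± 1.32% and Cacng2 from 4.99 ± 0.318% to 24.4 ± 2.41% in controls.

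Of the HCN channels, Hcn4 and Hcn3 were lower at P7 in controls. Hcn4 stood at 47.1, 43.7, 45.3 and 41.6 CPM in P0 controls and 7.00, 8.61, 9.23 and 7.33 CPM in P7 controls, a log2 difference of -2.33 (SE 0.12, limma adjusted p = 1.9e-13). Hcn3 had a log2 difference of -0.79, and Hcn2, at -0.24, was not called in controls. Of the Hcn3 exon length, 17.1% overlaps the antisense gene Pklr. Among the ryanodine receptors, Ryr2 had the largest rise of any channel gene with a level above 0 at P0, from 38.2, 41.97, 51.1 and 44.995 CPM in P0 controls to the 387 to 405 CPM of P7 controls, 8.96-fold and 3.14 (SE 0.08, limma adjusted p = 4.5e-18) on the log2 scale. In the cKO the rise was 5.30-fold, with a log2 difference of 2.38. Ryr1 stood at 102, 76.2, 67.4 and 81.9 CPM in P0 controls and 11.5, 14.8, 15.5 and 15.01 CPM in P7 controls, a log2 difference of -2.44 (SE 0.12, limma adjusted p = 6.4e-14). Ryr3 was higher at P7, at 1.52. Per kilobase, Ryr1 made up 42.4 ± 4.47% of the 3 genes in P0 controls and 2.66 ± 0.397% in P7 controls, and Ryr2 17.6 ± 3.59% and 55.9 ± 1.82%, with 47.2 ± 2.33% in the P7 cKO. In P0 controls Ryr1 did not stand clear of Ryr3, which held 40.03 ± 3.72%. In the cKO Ryr3 held 47.4 ± 2.15% at P0, beside 31.8 ± 2.10% for Ryr1, and 49.4 ± 2.42% at P7, where Ryr2 was within its SD. These shares depend on the exon lengths used, 28790 bases for Ryr2, 21838 for Ryr1 and 18977 for Ryr3. In CPM, Ryr2 stood above Ryr3 in the P7 cKO, at 297 ± 23.0 and 205 ± 12.9.

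**Figure D4:**
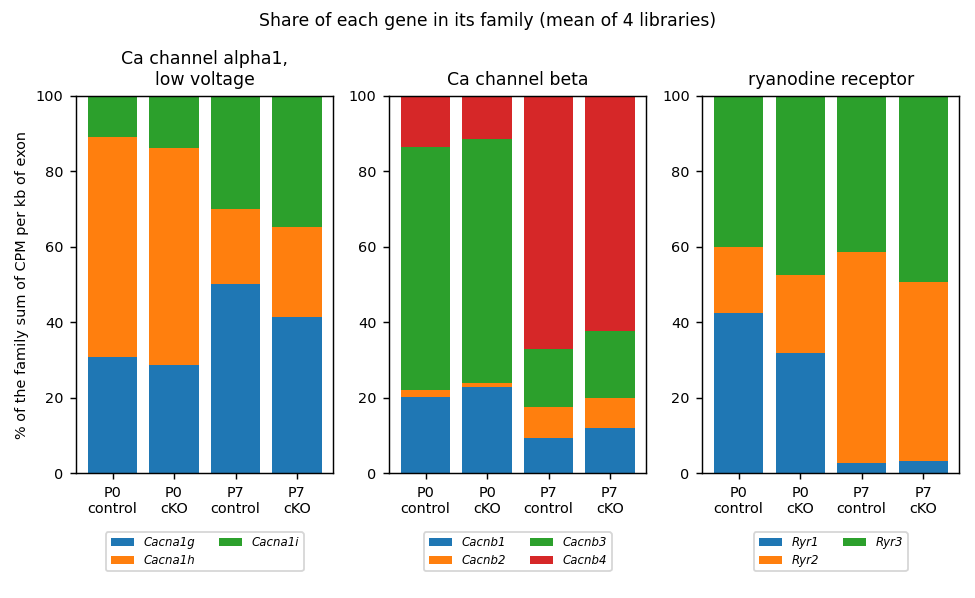
Share of each gene in its family's summed CPM per kilobase of exon (percent, stacked bars, mean of 4 libraries) in the 4 groups, for 3 families. In controls the gene with the largest share changes from Cacna1h at P0 to Cacna1g at P7, from Cacnb3 to Cacnb4 and from Ryr1 (with Ryr3 within its SD) to Ryr2.

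The P7 genotype comparison and the age comparison share the P7 control libraries, so the values below, set side by side, are not independent of each other. Ryr2 had log2 differences of 3.14 with age in controls, 2.38 with age in the cKO and -0.41 with genotype at P7. For Cacnb4 these were 1.92, 1.83 and -0.28, for Scn8a 1.42, 1.12 and -0.20, and for Cacna1a 0.93, 0.71 and -0.31. Cacna1g stood with age at -0.39 and -0.68 and with genotype at -0.37, and Cacng4, lower with age at -0.72 and -0.70, was higher with genotype at 0.31. Scn2a1, the most abundant channel gene per kilobase at P7, had a large age difference and a P7 genotype difference of -0.02.

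A list of 54 genes whose products anchor, modulate or work beside these channels was described the same way, and 50 were tested. The list was chosen with earlier results of these data known, so its shares beside those of all genes are a description only. At P7, 8 of 50 were called, 3 higher and 5 lower in the cKO (16%, beside 3.72% of all genes tested), with a median log2 difference of -0.05. Pex5l (TRIP8b), the auxiliary subunit that sets trafficking of HCN channels, stood at 155, 168, 154 and 152 CPM in P7 controls and 97.4, 96.5, 104 and 91.5 CPM in the cKO, a log2 difference of -0.68 (SE 0.05, limma adjusted p = 4.5e-06). All 4 cKO libraries lay below all 4 controls. Stac, an adaptor of L-type calcium channels, stood at 10.6, 14.96, 11.9 and 10.1 CPM and 23.7, 25.4, 24.6 and 18.7 CPM, a log2 difference of 0.91 (SE 0.13, limma adjusted p = 0.000581). Of the plasma membrane calcium pumps, Atp2b4 rose from 359 ± 30.02 to 527 ± 13.6 CPM, at 0.55 (SE 0.06, limma adjusted p = 3.4e-05), and Atp2b2 fell from 499.8 ± 14.9 to 386 ± 50.004 CPM, at -0.38 (SE 0.07, limma adjusted p = 0.00689). Atp2b1, another of these pumps, was not called, at 1607 ± 100.3 and 1541 ± 75.7 CPM, a log2 difference of -0.06 (adjusted p = 0.700, limma). Camk2a, a calcium-dependent kinase of the synapse, fell by 0.39, Fam155a, a subunit of the sodium leak channel complex, by 0.29, and Jph1, which joins the endoplasmic reticulum to the plasma membrane, by 0.33 on the log2 scale. Shisa9, an AMPA receptor auxiliary protein, rose by 0.20. At P0 1 of 50 was called (2%, beside 0.254%): Stac2, another L-type adaptor, stood at 45.4, 49.2, 37.97 and 45.3 CPM in controls and 19.6, 27.8, 27.8 and 20.8 CPM in the cKO, a log2 difference of -0.87 (SE 0.14, limma adjusted p = 0.0251). The genotype difference of Stac differed between the ages, with an interaction of 0.90 (SE 0.19, limma adjusted p = 0.0317); its P0 difference was 0.00 (adjusted p = 0.991, limma).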

How the data were processed

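PolyA RNA of mouse cortex was sequenced in 16 libraries. The deposited values are CPM, counts per 1000000 reads, 1 row per gene symbol. Per the submitters' processing notes, STAR, HTSeq, edgeR, mm10 and GRCm38 were used, and no source at hand gives versions, settings or strand use. CPM values were whole multiples of 1 read within 0.01 read for 100% of values, so read totals were recovered; the genes in the table hold 95.9% to 96.6% of them. Replicate libraries of a group differed by 2.68 to 39.4 in chi-square per gene, so none was treated as a copy. Pairs of P0 controls differed by 14.2 to 39.4, and pairs in the other groups by 2.68 to 10.0.

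The authors' CPM were analysed as log2(CPM + 1) with limma 3.58.1 (R 4.3.3, trended eBayes), at each age over genes with at least 1 CPM in at least 4 of 8 libraries, and over all 16 libraries for the interaction and age; p-values were Benjamini-Hochberg adjusted over all genes tested, and a gene was called at an adjusted p under 0.05. Fold changes of low genes are understated on this scale. The quasi-likelihood test of edgeR 4.0.16 on recovered reads, and a fit without P0 control libraries 2 and 6, were added after seeing the data; other alternatives changed the pseudocount, the filter, the scaling, the pooled fit and each library. Scripts were tested on simulated data.

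Values per library are given for genes called between genotypes, the 4 smallest p at each age, and the 5 largest rises and falls with age among called genes whose mean reached 5 CPM. Exon lengths and positions are from GENCODE M21. The genes and lists were chosen with earlier results of these data known. Some of the genes are counted but not reported here.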

Additional observations from a re-analysis of the deposited data

Results flagged for a closer look

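In 4 of the 74 groups of 4 libraries checked, 1 library stood far from the rest. Chance alone does so in about 1 in 20 groups. The groups checked were those of Foxp1 and of the channel genes selected for values per library, not of every channel gene. Cacna1a was 147 CPM in P0 control library 1, beside 113 to 119 CPM in the other 3. Ryr1 was 11.5 CPM in P7 control library 43, beside 14.8 to 15.5 CPM. Cacnb3 was 45.6 CPM in P7 control library 45, beside 36.7 to 38.2 CPM. Cacng7 was 182.6 CPM in P0 cKO library 3, beside 163 to 166 CPM. The genotype difference of Ryr2 differed between P7 and P0 by -0.76 on the log2 scale, as tested by the interaction term in limma.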

How the results depend on the processing

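At P0, 0 channel genes were called in every alternative but 1: in a single model over all 16 libraries there were 4, beside 794 of all genes. At P7 the 7 calls became 1 in that model, 6 with no filter (Cacna1g was lost), 8 with quantile normalization and 7 with edgeR on recovered reads; leaving out 1 library in turn gave 4 to 8, with 4 without control library 46 and 5 without control library 45. The interaction gave 1 to 3 calls with 1 library left out, the age comparison 34 to 36 in controls and 32 to 35 in the cKO, and P0 0 to 0. Ryr2 kept its P7 call in all 16 alternatives, while Cacna1g lost it in 7, Scn8a in 3, Cacna1a in 2, and Cacnb4 and Cacng4 in 1 each, the model over all 16 libraries; no named gene changed sign. The Ryr2 interaction was called in all 24 alternatives, from -0.83 to -0.69. The cause of the lost calls was not tested.

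Over all genes, the 32 calls at P0 became 7 with no filter, 794 in the model over all 16 libraries, 118 without control libraries 2 and 6, and 4 to 136 with 1 library left out; the 477 at P7 became 175 in that model and 281 without control library 46; the 101 interaction calls became 54 with no filter, 175 without P0 control libraries 2 and 6, and 45 to 361 with 1 library left out. The P7 split of 214 higher and 263 lower became 155 and 305 with medians of ratios and 162 and 301 with edgeR. No paired analysis was made, because the labels do not say which control and cKO libraries belong together.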
